A study of Mus musculus with 12 samples.

Results

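The genes described here are 8 genes of the two-cell-like state of mouse embryonic stem cells: Zscan4c, Zscan4d, Zscan4f, Zfp352, Duxf3, Tcstv1, Usp17lc and Gm4340. They are 8 of the 43346 gene IDs in the deposited table. They were chosen by their measured levels, as genes high in the DBA/2J line and not in the D2-13B6 line, so any comparison with either of those groups describes the choice and is given without a test. All 8 were found by symbol and all 8 passed the filter on low counts. As counted, 7 of the 8 fit that description. Gm4340 did not, and had less signal in DBA/2J than in C57BL/6J.

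RNA-seq covered 12 libraries, 3 for each of 4 lines of embryonic stem cells from mice. B6 is the inbred strain C57BL/6J and D2 is the inbred strain DBA/2J. B6-13D2 (B6.D2-(rs30079041-rs51756099)/Bakr, named QJ in the laboratory) carries a DBA/2J segment of chromosome 13 on the C57BL/6J background, and D2-13B6 (D2.B6-(rs29224292-rs13469455)/Bakr, named XE) carries a C57BL/6J segment on the DBA/2J background; the series design text names another end marker for the latter. All 4 lines grew in serum with LIF, the MEK inhibitor PD0325901 and the GSK3 inhibitor CHIR99021, and no knockout or other treatment is described. By the protocol each strain is represented by a single cell line grown in separate cultures, so strain and line cannot be told apart. The titles instead speak of technical replicates, and if they are right the p-values measure technical spread only. B6 replicate 3 carries another line name than B6 replicates 1 and 2, the D2 titles and cell line field name different lines, and the molecule field says genomic DNA.

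A small share of embryonic stem cells in culture passes at any time through a state that resembles the blastomeres of the two-cell embryo, in which the embryonic genome is first transcribed. The double homeodomain factor Dux, of which Duxf3 is the gene in this annotation, drives the state, and Zscan4 genes, Zfp352, Tcstv1, Usp17l genes and the tandem copies around Gm4340 are among the transcripts that mark it. Most of these genes lie in arrays of near-identical copies, so reads that match several copies must be divided among them. In bulk RNA, more cells in the state and more RNA per cell cannot be told apart.

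The promoters of the 3 Zscan4 members are shown because these 3 genes had the highest counts among the 8 and the most similar levels across libraries. The windows run from 250 bases before to 50 bases after the annotated start (RefSeq, GRCm38.p6), on the gene's own strand, at chr7:11005495-11005794 (plus strand) for Zscan4c, chr7:11166099-11166398 (minus strand) for Zscan4d and chr7:11397665-11397964 (plus strand) for Zscan4f. Capitals mark the match to TGAT and ATCA with any 3 bases between them, a loose form of the sequence that Dux proteins are known to bind.
Zscan4c: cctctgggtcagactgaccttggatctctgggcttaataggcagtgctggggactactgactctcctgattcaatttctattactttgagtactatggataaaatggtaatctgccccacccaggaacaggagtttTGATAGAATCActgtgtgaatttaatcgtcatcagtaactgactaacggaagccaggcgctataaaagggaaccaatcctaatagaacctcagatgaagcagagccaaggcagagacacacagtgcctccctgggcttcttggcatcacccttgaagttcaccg
Zscan4d: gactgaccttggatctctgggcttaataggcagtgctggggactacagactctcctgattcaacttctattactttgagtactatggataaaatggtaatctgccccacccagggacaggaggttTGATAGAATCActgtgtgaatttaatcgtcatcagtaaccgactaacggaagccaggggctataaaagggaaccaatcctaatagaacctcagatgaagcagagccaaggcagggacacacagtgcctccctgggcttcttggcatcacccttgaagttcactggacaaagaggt
Zscan4f: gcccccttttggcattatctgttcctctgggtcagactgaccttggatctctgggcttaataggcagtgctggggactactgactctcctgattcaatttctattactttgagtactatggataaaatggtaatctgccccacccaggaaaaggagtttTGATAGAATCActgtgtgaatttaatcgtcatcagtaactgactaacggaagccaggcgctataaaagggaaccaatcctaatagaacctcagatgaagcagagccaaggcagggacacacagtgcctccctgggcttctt

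All 3 windows held the same 11 bases, TGATAGAATCA, beginning 114 bases before the start in Zscan4c, 125 in Zscan4d and 91 in Zscan4f. The pattern is its own reverse complement, so a match counts for both strands. It occurred in 159 of 32851 promoter windows of the same length, or 0.484%. A TATAAA lay 54, 65 and 31 bases before the start; on either strand that word occurred in 13.6% of windows. Identity between windows was counted over all alignment columns, gaps included. It was 90.4% for Zscan4c and Zscan4d (281 of 311 columns) and 85.1% for Zscan4c and Zscan4f (275 of 323). For Zscan4d and Zscan4f it was 77.5% (259 of 334). The windows begin at different points of the shared sequence, and the gaps that this leaves lower the values. The word occurs within sequence that the copies share. RefSeq windows were found for 7 of the 8 genes; the exception was Tcstv1. Between a Zscan4 window and that of Zfp352, Duxf3, Usp17lc or Gm4340, identity was 43.3% to 48.5%, and those 4 windows held no match to the pattern. TAAT and ATCA with any 3 bases between them, searched on both strands and found in 0.889% of all windows, occurred in none of the 7.

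Levels are given as CPM, counts scaled to library totals with TMM factors. They are not divided by transcript length and so compare libraries, not genes. Zscan4c (ENSMUSG00000054272, GRCm38 chr7:11005745-11010547, plus strand) is one of the zinc finger and SCAN domain genes by which two-cell-like cells are usually recognised. It had 10.7, 11.6 and 10.02 CPM in the B6 libraries, 47.4, 47.4 and 59.2 CPM in D2, 9.96, 10.01 and 8.59 CPM in B6-13D2, and 7.72, 8.11 and 9.34 CPM in D2-13B6. Every D2 library lay above every other library, and the mean in D2 was 4.76-fold that in B6 and 6.12-fold that in D2-13B6.

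Zscan4d (ENSMUSG00000090714, chr7:11161374-11166159, minus strand) is the copy described as the main one in the two-cell embryo. Its levels were 4.55, 4.94 and 4.72 CPM for B6, 18.2, 22.4 and 23.7 CPM for D2, 5.47, 5.12 and 4.39 CPM for B6-13D2, and 3.39, 3.57 and 4.45 CPM for D2-13B6. D2 again stood apart, at 4.52-fold B6 and 5.63-fold D2-13B6, while B6 and B6-13D2 overlapped.

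Zscan4f (ENSMUSG00000070828, chr7:11397915-11402318, plus strand) had 22.7, 22.7 and 25.0 CPM for B6, 85.7, 85.5 and 99.8 CPM for D2, 18.6, 19.3 and 19.5 CPM for B6-13D2, and 15.4, 18.0 and 16.4 CPM for D2-13B6. The 4 groups did not overlap for this gene, and their order from high to low was D2, B6, B6-13D2 and D2-13B6. D2 was 3.85-fold B6 and 5.44-fold D2-13B6.

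Duxf3 (ENSMUSG00000075046, chr10:58229979-58232675, minus strand), the activator placed upstream of the others, was near the limit of detection, with 0 to 48.7 expected counts per library. It had 0.665, 0.462 and 0.643 CPM for B6, 0.743, 1.35 and 1.67 CPM for D2, 0.611, 0.683 and 0.489 CPM for B6-13D2, and 0.247, 0.194 and 0 CPM for D2-13B6. The D2 libraries differed among themselves by more than for the Zscan4 genes (CV 37.4%, against 9.10% to 13.5%), and D2 replicate 1 lay close above the highest B6 library. The libraries of D2-13B6 were the lowest, at 8.54-fold below D2 by the means.

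Zfp352 (ENSMUSG00000070902, chr4:90218820-90225702, plus strand), a zinc finger gene transcribed in the two-cell embryo, was the only one of the 8 with whole counts in every library. It had 14, 8 and 8 counts for B6, 26, 55 and 30 for D2, 11, 11 and 14 for B6-13D2, and 3, 2 and 7 for D2-13B6. In CPM these were 0.615, 0.336 and 0.343 for B6, 1.08, 1.53 and 1.37 for D2, 0.381, 0.369 and 0.528 for B6-13D2, and 0.0822, 0.0554 and 0.238 for D2-13B6. D2 was the highest group and D2-13B6 the lowest, each without overlap with the others, and B6 and B6-13D2 overlapped. Its counts and its lack of shared sequence (given further on) show no division of reads among copies.

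Tcstv1 (ENSMUSG00000096284, chr13:119893388-119894785, minus strand) is the single member on chromosome 13, the chromosome of the congenic segments, whose ends the labels give by marker name and not by position. It had 0.659, 0.929 and 0.966 CPM for B6, 2.17, 1.53 and 1.61 CPM for D2, 0.882, 0.537 and 0.830 CPM for B6-13D2, and 0.165, 0.332 and 0.255 CPM for D2-13B6. B6-13D2, with the D2 segment, overlapped B6, and D2-13B6, with the B6 segment, lay below B6 as well as below D2. These values rest on 6 to 55 counts per library.

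Usp17lc (ENSMUSG00000058976, chr7:103415072-103419880, plus strand), a deubiquitinase gene of a tandem family, had 1.39, 1.16 and 1.97 CPM for B6, 2.62, 3.99 and 4.24 CPM for D2, 1.70, 1.29 and 2.24 CPM for B6-13D2, and 0.628, 0.343 and 0.637 CPM for D2-13B6. The order was the same as for Tcstv1, with D2 highest, B6 and B6-13D2 overlapping, and D2-13B6 lowest.

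Gm4340 (ENSMUSG00000090854, chr10:104194042-104196522, plus strand) is one of a tandem array of copies related to early embryonic transcripts. It had 3.75, 2.65 and 1.17 CPM for B6, 0.813, 0.822 and 0.673 CPM for D2, 2.52, 3.90 and 1.15 CPM for B6-13D2, and 0.0369, 0.923 and 0.0884 CPM for D2-13B6. Its 3 libraries of one line differed by more than those of any other member in B6, B6-13D2 and D2-13B6 (CV 51.4%, 54.6% and 142.3%). D2 lay below B6 without overlap, and D2 and D2-13B6 overlapped, with D2-13B6 replicate 2 above every D2 library.

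**Figure D1:**
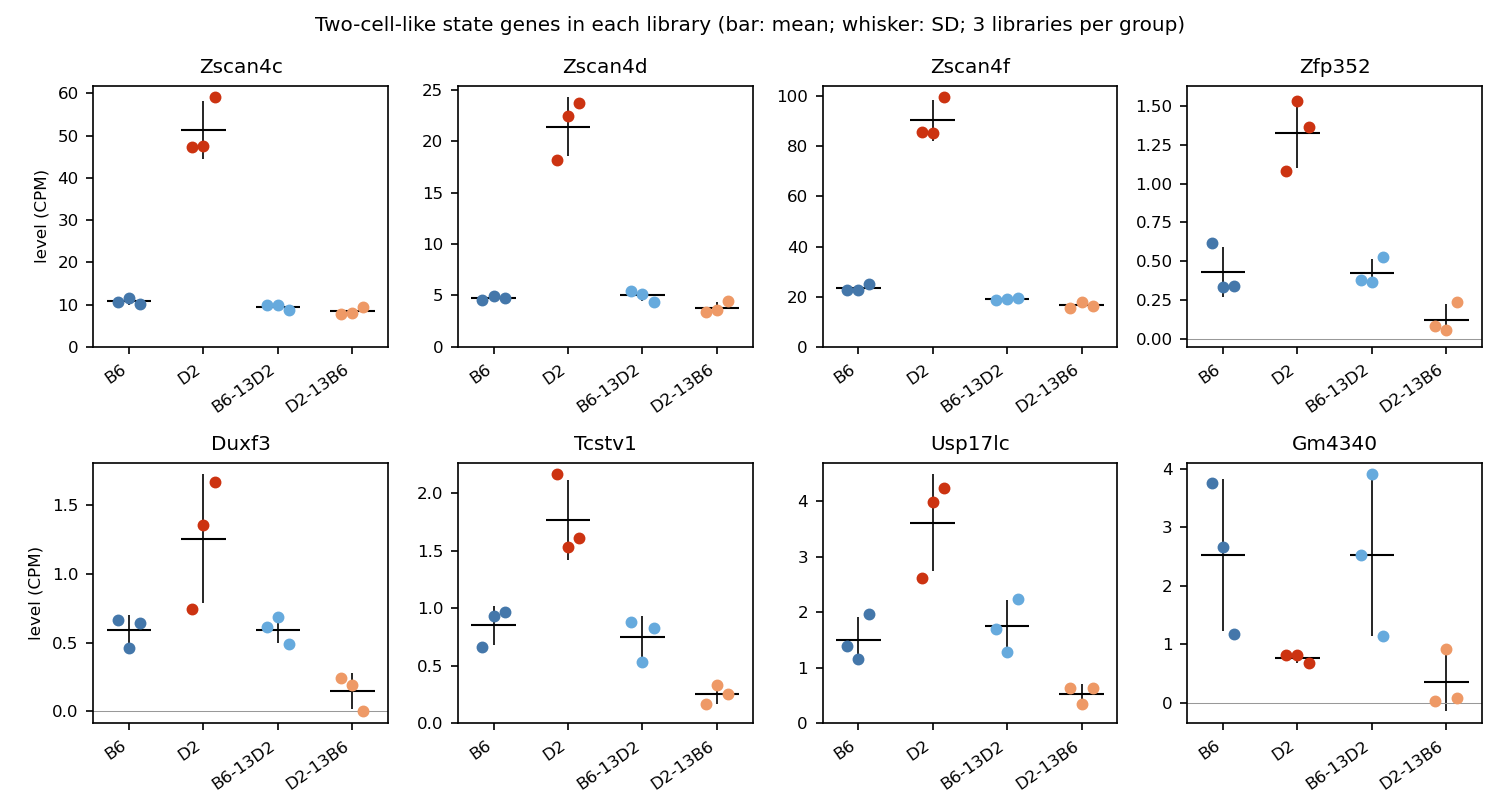
Level in CPM (y axis, linear, a separate scale in each panel) of the 8 genes in each of 12 libraries, by line (x axis); points are libraries, the bar is the mean of 3 and the whisker the SD. In 7 panels every D2 library is above every other library; Gm4340 is highest in B6 and B6-13D2.

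As log2 fold changes from the edgeR fit, D2 against B6 gave 2.24 for Zscan4c, 2.17 for Zscan4d, 1.94 for Zscan4f, 1.63 for Zfp352, 1.10 for Duxf3, 1.03 for Tcstv1, 1.25 for Usp17lc and -1.66 for Gm4340. Thus 7 genes were higher in D2 without overlap between groups, against 31.2% of the 17148 genes tested, and 1 was lower, against 30.9%. D2-13B6 lay below D2 without overlap for the same 7 (all genes 32.2%), by -1.13 for Gm4340 with overlap and by -2.44 to -3.44 for the others. Over the alternatives run, the values of those 7 were -4.19 (Zfp352) to -2.03 (Usp17lc). These comparisons use the values that chose the genes, so nothing is read from the counts.

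D2-13B6 lay below B6 without overlap for all 8 genes, against 37.5% of all genes. This comparison also contains a group of the rule. The Zscan4 genes differed by -0.33 to -0.50 on the log2 scale, whereas Zfp352, Duxf3, Tcstv1 and Usp17lc differed by -1.82, -1.89, -1.79 and -1.51. Over the alternatives run, the Zscan4 values were -0.56 to -0.07 and those of the latter 4 genes -2.57 to -0.79. Gm4340 had -2.79, and 1 library decided its size: without D2-13B6 replicate 2 it was -5.26, and -3.60 in place of -1.13 against D2. B6-13D2 lay below D2 without overlap for 7 genes (all genes 38.3%) and above it for Gm4340 (all genes 37.2%). Comparisons that share a line share its 3 libraries, so these values are not independent of each other.

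Comparing B6-13D2 with B6 asks what the D2 segment does on the B6 background. Any other difference between the lines enters too. It is the comparison that uses neither group of the rule. Of the 8 genes, 1 was called (edgeR quasi-likelihood test, adjusted p under 0.05 over all genes tested), against 58.3% of all genes (32.9% lower and 25.4% higher). That gene was Zscan4f, which was lower in B6-13D2, at 19.1 CPM ± 0.499 (SD, n = 3) against 23.5 CPM ± 1.31, a difference of -0.29 in log2 (SE 0.0758, edgeR adjusted p 0.00285). Without B6 replicate 3, which carries the other line name, it was -0.25 (edgeR adjusted p 0.0195). Zscan4c was lower without overlap too, at -0.18 (SE 0.112, edgeR adjusted p 0.186), and Zscan4d had 0.08 (SE 0.138, edgeR adjusted p 0.656). No overlap in the lower direction was found for 35.2% of all genes.

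The other 5 members had log2 fold changes of -0.02 for Zfp352 (SE 0.418), 0.02 for Duxf3 (SE 0.458), -0.21 for Tcstv1 (SE 0.310), 0.18 for Usp17lc (SE 0.280) and 0.02 for Gm4340 (SE 0.503), with edgeR adjusted p from 0.587 to 0.982. At these standard errors a change as small as that of Zscan4f was not detectable. Zfp352 passed the filter on low counts only through D2 or D2-13B6, and dropped out of a fit of these 6 libraries alone.

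The markers of other cells moved with the groups. Library totals were 22184196 to 36411799 expected counts. All 11 stem cell markers were present in each line, with a summed level of 5621 to 5978 CPM for B6, 3917 to 3990 for D2, 6404 to 6686 for B6-13D2 and 4797 to 4855 for D2-13B6. The 8 fibroblast markers, which feeder cells would also express, summed to 9385 to 10190 CPM for B6, 14170 to 16960 for D2, 3093 to 3180 for B6-13D2 and 7730 to 8058 for D2-13B6, with none at 0. They were called higher for 8 of 8 in D2 against B6, lower for 8 of 8 in B6-13D2 against B6 and lower for 7 of 8 in D2-13B6 against D2. Of the 10 primitive endoderm markers, 9 were tested, of which 5 were called higher and 2 lower in D2 against B6, 0 higher and 6 lower in B6-13D2 against B6 (median -1.07), and 3 higher and 3 lower in D2-13B6 against D2. The 10 summed to 376.3 to 403.5 CPM for B6, 558.4 to 645.7 for D2, 137.1 to 142.0 for B6-13D2 and 442.7 to 452.3 for D2-13B6. Most of that sum was Col4a1, a basement membrane collagen, with mean levels of 337.5, 550.6, 116.2 and 358.3 CPM in the same order. The 8 trophoblast markers summed to 27.7 to 42.5 CPM over all lines, and none of either list was at 0 in all libraries. Their part in the levels of the 8 genes and of the lists was not tested. Per 1000 counts of the stem cell markers, the 5 Zscan4 copies of the table had 8.68 ± 0.460 counts (SD, n = 3) for B6, 53.9 ± 6.78 for D2, 6.67 ± 0.139 for B6-13D2 and 7.69 ± 0.449 for D2-13B6, so that on this scale D2 was 6.21-fold B6, 8.08-fold B6-13D2 and 7.01-fold D2-13B6.

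The Zscan4 counts were never whole, in any library, for Zscan4c, Zscan4d and Zscan4f, and the same held for Usp17lc and Gm4340. Tcstv1 was whole in 7 of 12 libraries and Duxf3 in 5. Shared sequence was measured as the share of a gene's 150-base words (the read length) that also occur in transcripts of another gene. It was 61.0% for Zscan4c, 13.0% for Zscan4d, 77.4% for Zscan4f, 14.7% for Duxf3, 29.4% for Usp17lc and 90.1% for Gm4340, and 0% for Zfp352 and Tcstv1. Among genes of the table, Zscan4c and Zscan4f shared the most with each other, 44.9% of the words of Zscan4c and 51.0% of those of Zscan4f.

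Summing copies removes the division of reads among the copies summed. Family copies outside the table are not part of a sum. Zscan4f, for example, shared 77.4% of its words with other genes, but 55.9% with genes of the table. The 5 Zscan4 copies in the table (Zscan4b and Zscan4e besides the members) came to 50.1 CPM ± 2.51 (SD, n = 3) for B6, 213 ± 24.6 for D2, 43.4 ± 0.214 for B6-13D2 and 37.1 ± 2.25 for D2-13B6. D2 was 4.26-fold B6 and 5.75-fold D2-13B6 in this sum. The sum was lower in B6-13D2 than in B6 by -0.21 on the log2 scale (SE 0.0721, edgeR adjusted p 0.0208), between the values of Zscan4f and Zscan4d. Of the summed reads, not adjusted for length, Zscan4f held on average 46.9%, 42.5%, 44.0% and 44.8% in B6, D2, B6-13D2 and D2-13B6. Its mean share was lowest in D2, where the sum was highest, but the libraries of D2 overlapped those of both congenic lines. The shares were 41.3% to 43.7% in D2, 43.0% to 44.9% in B6-13D2, 43.2% to 46.4% in D2-13B6 and 43.9% to 48.5% in B6.

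The 6 Usp17l copies summed to 5.73 CPM ± 0.864 for B6, 13.6 ± 1.37 for D2, 4.82 ± 0.635 for B6-13D2 and 3.33 ± 0.618 for D2-13B6. Within that family Usp17lc held 15.9% of the reads in D2-13B6 and 26.2% to 35.96% in the other lines, and the sum fell less between D2 and D2-13B6 (4.07-fold) than Usp17lc alone (6.74-fold). Tcstv1 and Tcstv3 together had 1.08 CPM ± 0.192, 1.89 ± 0.310, 0.860 ± 0.252 and 0.256 ± 0.0849, listed as above. Duxf3 with the pair of neighbouring genes that share its sequence, AW822073 and Gm10807, had 0.959 CPM ± 0.0686, 2.14 ± 0.652, 1.09 ± 0.188 and 0.400 ± 0.0576. All these sums kept D2 highest and D2-13B6 lowest.

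Gm4340 was the exception. Its 6 tandem neighbours, Gm20765, Gm21293, Gm21304, Gm21312, Gm6763 and Gm8764, each hold the same 90.1% of its words and lie within chr10:104142987-104196522. Gm21304 and Gm8764 had the same mean in each line, 2.27 CPM in B6 and 4.88 CPM in D2. Gm4340, Gm20765 and Gm6763 were lower in D2 than in B6 by their means, and Gm21293, Gm21304, Gm21312 and Gm8764 were higher. The sum of the 7 copies, an alternative chosen after Gm4340 was seen to move apart, was 22.3 CPM ± 1.20 for B6, 22.8 ± 1.89 for D2, 23.5 ± 2.17 for B6-13D2 and 2.54 ± 0.222 for D2-13B6. B6, D2 and B6-13D2 thus overlapped in the sum (log2 fold change 0.04 for D2 against B6), and D2-13B6 alone was low, 8.99-fold below D2 and 8.77-fold below B6. B6-13D2 against B6 gave 0.08 for the sum (SE 0.0758, edgeR adjusted p 0.397).

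**Figure D2:**
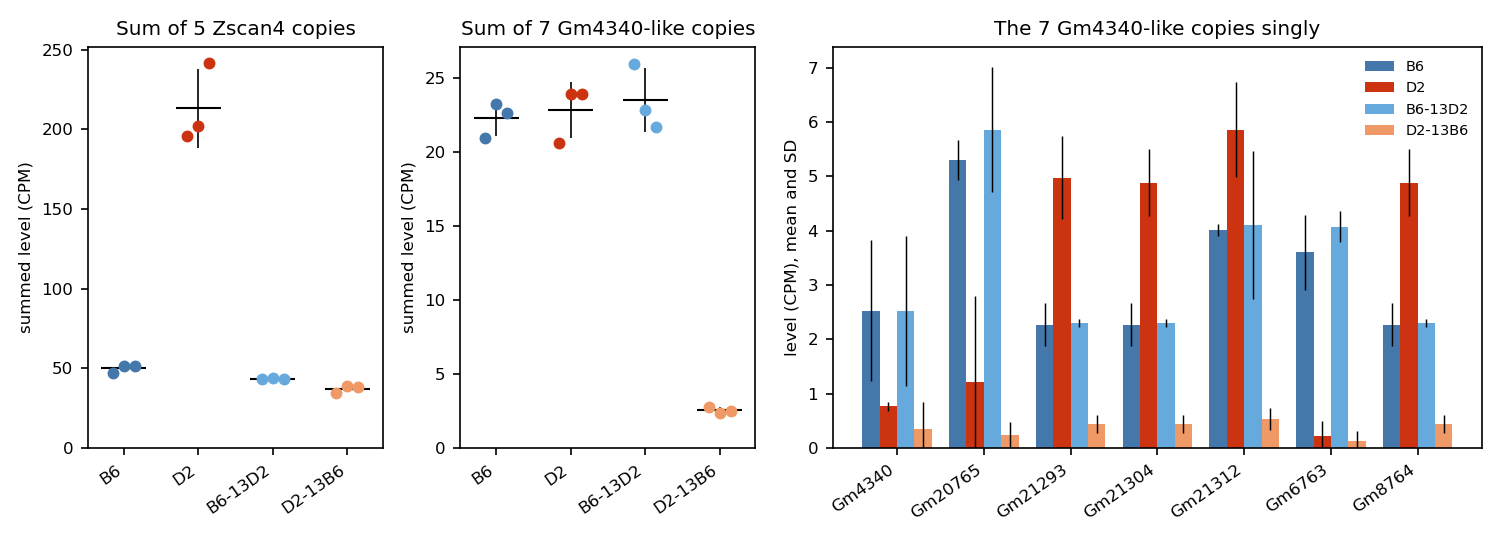
Summed level in CPM (y axis, linear) of the 5 Zscan4 copies (left) and of the 7 Gm4340-like copies (middle) in each library by line, with mean and SD, and the mean level with SD (n = 3) of each of the 7 copies (right, bars from 0). The Zscan4 sum is highest in D2; the Gm4340 sum is low in D2-13B6 only, while single copies go up or down in D2.

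How the members vary together depended on what was compared. Over the 12 libraries, on log2(CPM + 0.5), Pearson's r was 0.98 to 0.99 for the 3 pairs of Zscan4 members and 0.77 to 0.99 for the 21 pairs of the 7 genes other than Gm4340 (median 0.86). These values share the rule: all 7 were chosen as high in D2. Without the D2 libraries, r over the other 9 was 0.48 to 0.85 for the same 21 pairs (median 0.69), and Gm4340 joined them with 0.52 to 0.82. That lower range still holds the low level of D2-13B6, the other group of the rule.

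Around their group means the genes moved together far less. For deviations from group means over the 12 libraries, r had a median of 0.17 over the 21 pairs, from -0.54 to 0.80, and 14 of 21 were above 0. The highest was 0.80 for Zscan4c and Zscan4d, and Zscan4f had 0.30 and 0.21 with them. Gm4340 had a median of 0.02 with the other genes, and -0.80 with Usp17lc. Each r here rests on 12 points from 4 groups, and for Zfp352, Duxf3 and Tcstv1 on 0 to 55 counts a library. The correlations are descriptions only.

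**Figure D3:**
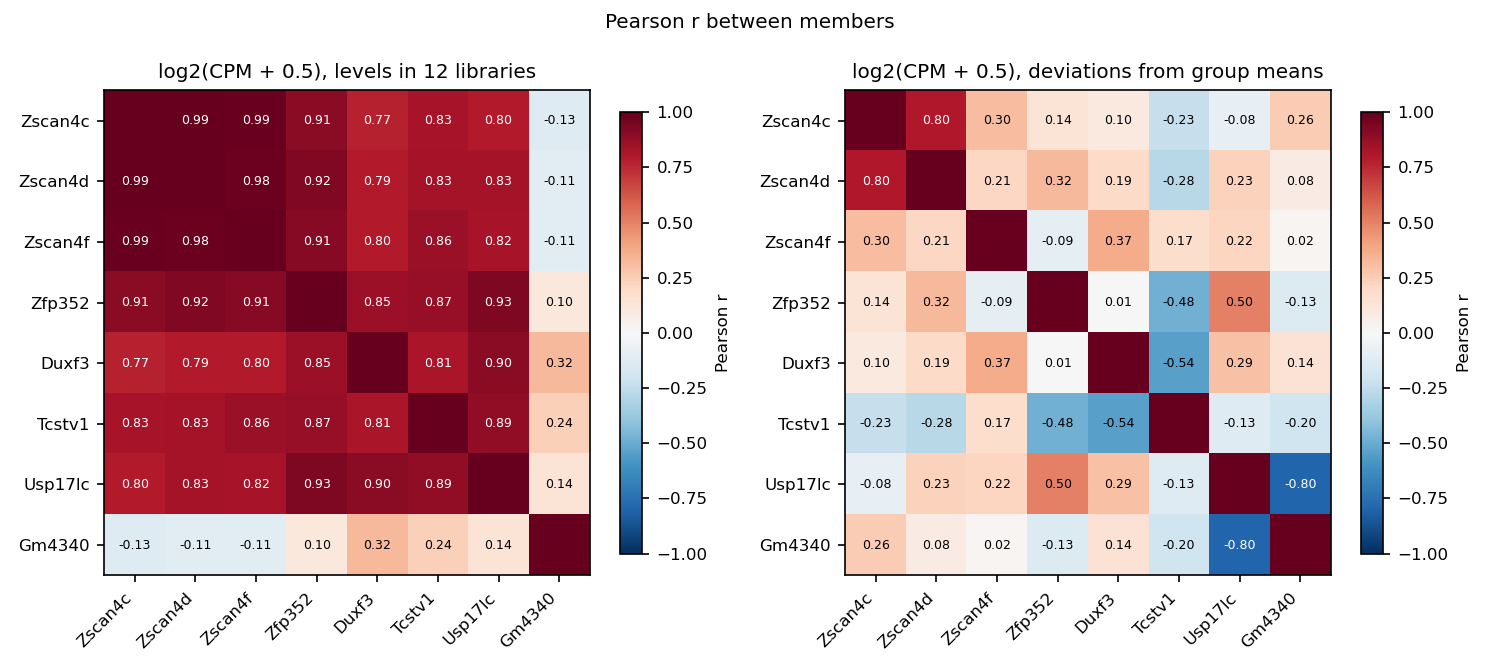
Pearson's r between pairs of members (color scale from -1 to 1) for log2(CPM + 0.5) in 12 libraries (left) and for deviations from the mean of each line (right). Levels of 7 members correlate at 0.77 to 0.99, and Gm4340 at -0.13 to 0.32 with them; deviations correlate at -0.80 to 0.80.

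Outside the lists, the 8 genes whose levels were most like the mean of Zscan4c, Zscan4d and Zscan4f over the 12 libraries were Rian, Gm16344, Tnfrsf22, Stab2, Pacs2, Gm12735, Pvr and Gm2056, with r from 0.96 to 0.98. Stab2, a scavenger receptor gene, stood high in D2 alone: it had 0.644 CPM ± 0.0508 (SD, n = 3) for B6, 7.89 ± 0.168 for D2, 0.507 ± 0.213 for B6-13D2 and 0.788 ± 0.175 for D2-13B6, and Rian, an imprinted noncoding RNA, had 264 ± 2.18, 334 ± 11.4, 256 ± 7.03 and 246 ± 1.15. By deviations from group means the 8 were Magi2, Hat1, Eif1a, Nudcd3, Zfp715, Vipas39, Ccdc171 and Gm15283, with r from 0.92 to 0.97, and none of them was on the first list. Both lists hold the highest r among all genes tested, so high values follow from the choice and are no test. For levels, the Zscan4 genes compared with were themselves chosen as high in D2.

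Most other genes of the two-cell programme that were tested were higher in D2 than in B6, and most were lower in D2-13B6 than in D2. The list outside the members held 74 symbols, of which 61 were in the table and 46 were tested; like the members, it was compiled with earlier results of these data known. In D2 against B6, 35 of the 46 were called, 29 higher and 6 lower, with a median log2 fold change of 1.03; of all genes 60.0% were called, 29.8% higher and 30.3% lower, with a median of 0.01. With a log2 fold change of at least 1 in either direction as well, it was 28 of 46, against 11.3% of all genes. Of the 46, 6 are Zscan4 or Usp17l relatives, and Gm21304 and Gm6763 belong to the Gm4340 array. Without the 6 Zscan4 and Usp17l relatives, 29 of 40 were called, 23 higher and 6 lower, with a median of 0.60. Zscan4b, Zscan4e, Usp17ld, Usp17le, Gm21304 and Gm6763 share 150-base words with members and are not separate from them as measurements. Tdpoz4 was at 0 in B6 and B6-13D2, and with it at the bound that a floor of 3 counts per library gives, the medians of the list were the same to 2 decimals.

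For D2-13B6 against D2 the calls were 41 of 46, 8 higher and 33 lower, with a median of -1.59, against 57.3% of all genes (27.6% higher, 29.7% lower, median 0.00). Without the 6 relatives they were 35 of 40, 8 higher and 27 lower, with a median of -1.54. Past a log2 fold change of 1 it was 37 of 46, against 8.96%. In D2-13B6 against B6, 33 were called, 10 higher and 23 lower (median -0.63), against 59.0% (24.5% higher, 34.6% lower, median -0.06); 21 were past 1, against 11.6%. In B6-13D2 against D2, 40 were called, 6 higher and 34 lower (median -1.42), against 74.6% (36.7% higher, 38.0% lower), and 33 were past 1, against 28.1%.

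In B6-13D2 against B6, 16 of 46 were called, 2 higher and 14 lower, against 58.3% of all genes (25.4% higher, 32.9% lower), with a median of -0.27 against -0.04 for all genes. DESeq2 called 11 of the list, 2 higher and 9 lower. Of the 46, 6 were called past a log2 fold change of 1, against 14.5% of all genes. In a fit of only those 6 libraries, 38 of the list passed the filter on low counts and 13 were called, so 8 of the 46 passed only through D2 or D2-13B6. The segment effect on one background minus that on the other, which equals both congenic lines minus both parental lines, was called for 35 of 46, against 64.5% of all genes. Columns of both congenic lines carry a prefix that the parental columns lack, and a batch it may record cannot be told apart from that contrast.

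The 8 largest changes of the list in D2 against B6, among genes with a mean of at least 20 counts, included both Zscan4 relatives. Zscan4b had 7.05 CPM ± 1.21 (SD, n = 3) in B6 and 33.4 ± 2.86 in D2 (log2 fold change 2.24), and Zscan4e had 4.06 ± 1.30 and 16.7 ± 5.62 (2.02). These are given without a test, as they share sequence with the members chosen for this difference. Gm8994 rose from 0.362 CPM ± 0.0606 in B6 to 6.99 ± 0.615 in D2 (4.27, SE 0.225, edgeR adjusted p 3.55e-11) and had 1.49 ± 0.0524 in D2-13B6. Gm21761 rose by 1.70 (SE 0.251, edgeR adjusted p 1.43e-05). Gm6763 of the Gm4340 array had a log2 fold change of -4.07, also given without a test, which the sum of the copies did not show.

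Genes with whole counts give the pattern without divided reads, and there it was mixed. Of 11 tested, 9 were called in D2 against B6 (7 higher, 2 lower, median 0.59), where 60.0% of all genes were. Another 9 calls, 4 higher and 5 lower with a median of 0.05, were made for D2-13B6 against D2, where 57.3% of all genes were called. B020031M17Rik on chromosome 13 followed the members: 2.39 CPM ± 0.212 for B6, 8.54 ± 0.776 for D2, 2.35 ± 0.446 for B6-13D2 and 1.76 ± 0.106 for D2-13B6. The log2 fold changes were 1.84 (SE 0.141, edgeR adjusted p 4.87e-09) for D2 against B6 and -2.28 (SE 0.140, edgeR adjusted p 2.02e-10) for D2-13B6 against D2.

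Pramel7, a PRAME family gene of pluripotent cells on chromosome 2, was high in D2 and remained so in D2-13B6. It had 5.56 CPM ± 0.569 for B6, 30.0 ± 1.97 for D2, 5.37 ± 0.180 for B6-13D2 and 43.3 ± 1.11 for D2-13B6. Its log2 fold change was 2.43 in D2 against B6 (SE 0.0754, edgeR adjusted p 2.87e-14) and 0.53 in D2-13B6 against D2 (SE 0.0553, edgeR adjusted p 2.12e-07). Patl2, an oocyte RNA-binding factor, went the other way round: 3.27 CPM ± 0.450 for B6, 0.627 ± 0.212 for D2, 5.23 ± 0.695 for B6-13D2 and 1.70 ± 0.122 for D2-13B6, a difference of -2.36 in log2 in D2 against B6 (SE 0.220, edgeR adjusted p 5.75e-08).

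The largest changes of the list in B6-13D2 against B6, named here, were lower in B6-13D2. Trim43a, a marker of early cleavage embryos, had 1.26 CPM ± 0.271 for B6, 0.718 ± 0.168 for D2, 0.0975 ± 0.0945 for B6-13D2 and 5.83 ± 0.341 for D2-13B6, a difference of -3.68 in log2 (SE 0.440, edgeR adjusted p 1.12e-06) for B6-13D2 against B6. Gm2016 changed by -1.43 (SE 0.179, edgeR adjusted p 1.89e-06) and Gm5662 by -1.19 (SE 0.128, edgeR adjusted p 2.84e-07), both on chromosome 12 with divided reads. Fgf1, a growth factor gene, changed by -1.13 (SE 0.276, edgeR adjusted p 0.00188). Ddit4l, a stress response gene with whole counts, had 16.5 CPM ± 0.993 for B6, 24.7 ± 0.747 for D2, 8.99 ± 0.714 for B6-13D2 and 22.3 ± 0.944 for D2-13B6 (-0.87, SE 0.0735, edgeR adjusted p 1.18e-08). Zfp750 changed by -0.73 (SE 0.104, edgeR adjusted p 8.28e-06). Usp17la changed by -0.75 (SE 0.268, edgeR adjusted p 0.0233), a call that was lost with DESeq2 (adjusted p 0.0636), without B6 replicate 3 (edgeR adjusted p 0.0684) and without B6-13D2 replicate 2 (edgeR adjusted p 0.0938).

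**Figure D4:**
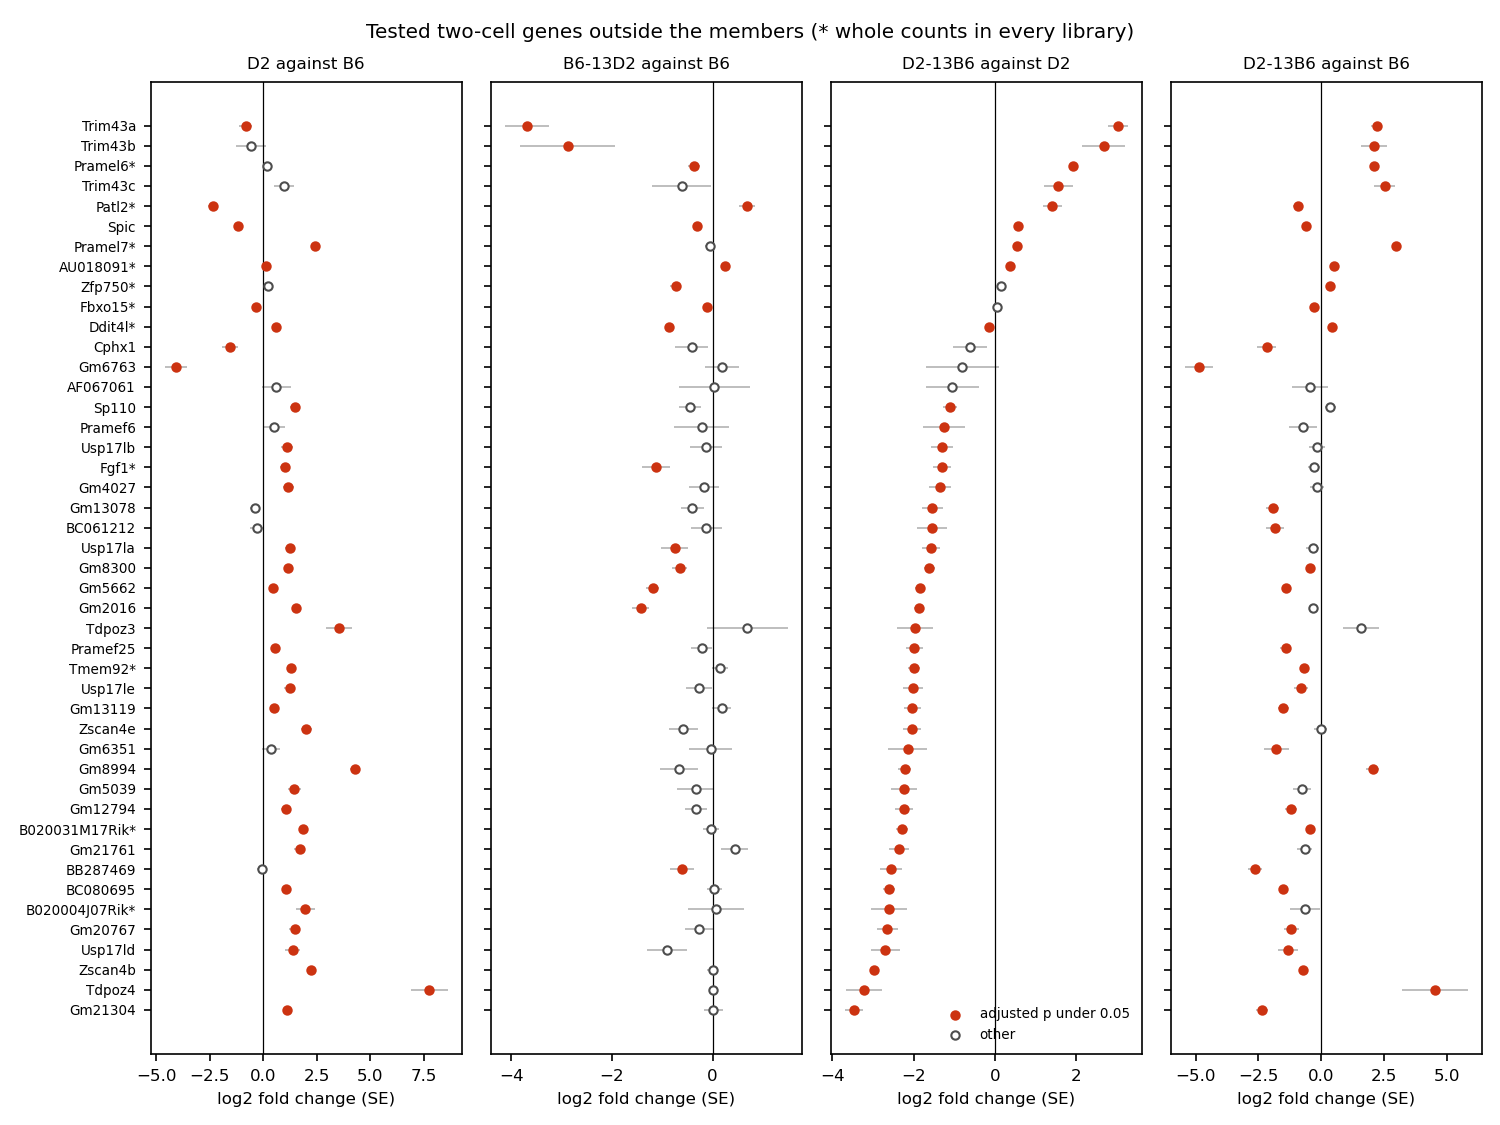
Log2 fold change with SE (x axis) of 45 of the 46 tested two-cell genes outside the members (rows, ordered by D2-13B6 against D2) in 4 comparisons; red points were called by edgeR at an adjusted p under 0.05, and genes marked with a star have whole counts in every library. Most points lie right of 0 in D2 against B6 and left of 0 in D2-13B6 against D2, and Pramel7, Pramel6, Patl2 and Trim43 genes are among those that lie right of 0 in the latter. Tdpoz4 was at 0 in B6 and B6-13D2, so its fitted values depend on the prior count and are no bound.

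Known activators and repressors of the state differed mostly by small amounts, and 26 of 43 had whole counts in every library. Of 43, all tested, 33 were called in D2 against B6 (5 higher, 28 lower, median -0.22), 30 in B6-13D2 against B6 (20 higher, 10 lower, median 0.09), 38 in D2-13B6 against D2 (28 higher, 10 lower, median 0.20), 37 in D2-13B6 against B6 (11 higher, 26 lower, median -0.15) and 37 in B6-13D2 against D2 (32 higher, 5 lower, median 0.37). Of all genes, 60.0%, 58.3%, 57.3%, 59.0% and 74.6% were called in the same order. These directions depended on the scaling, which moves all genes alike. With libraries scaled to 11 stem cell markers, an alternative added after the data were seen, the median of all genes moved by 0.54, -0.18, -0.28, 0.26 and -0.72. Among the activators and repressors, the share of calls that was higher went from 15.2% to 88.6%, from 66.7% to 18.2%, from 73.7% to 22.2%, from 29.7% to 66.7% and from 86.5% to 8.57% in that order of comparisons. Over all genes that share went from 49.6% to 91.8%, from 43.5% to 22.4%, from 48.2% to 17.3%, from 41.5% to 77.4% and from 49.1% to 10.6%, turning the same way in each. In B6-13D2 against B6 the list's share was 80.6% with RLE size factors and 80.0% with DESeq2.

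Among the activators, Dppa2, which binds the Dux locus in stem cells, had 71.3 CPM ± 1.60 (SD, n = 3) for B6, 101.5 ± 8.96 for D2, 46.9 ± 0.818 for B6-13D2 and 120.3 ± 2.64 for D2-13B6. It was lower in B6-13D2 than in B6 by -0.60 (SE 0.0525, edgeR adjusted p 1.83e-08) and higher in D2-13B6 than in D2 by 0.25 (SE 0.0474, edgeR adjusted p 0.000236), the latter turning to -0.04 when scaled to stem cell markers. D2-13B6, the lowest line by mean for all 8 members, thus had the highest mean of Dppa2. Dppa3 (Stella), a maternal factor, had 18.4 CPM ± 0.556 for B6, 4.70 ± 0.678 for D2, 9.26 ± 1.48 for B6-13D2 and 2.75 ± 0.311 for D2-13B6, and was lower in both congenic lines than in their background strains, by -0.99 (SE 0.107, edgeR adjusted p 3.05e-07) and -0.78 (SE 0.144, edgeR adjusted p 0.000148).

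Duxbl1, Duxbl2 and Duxbl3, a separate Dux-like array on chromosome 14 with divided reads, were lower in D2-13B6 than in D2, by -1.01 (SE 0.309, edgeR adjusted p 0.00960), -2.32 (SE 0.613, edgeR adjusted p 0.00356) and -1.61 (SE 0.372, edgeR adjusted p 0.00126). For Duxbl1 that call was lost without D2 replicate 1 (-0.58, edgeR adjusted p 0.109). Between B6-13D2 and B6, Duxbl1 had 0.62 (SE 0.256, edgeR adjusted p 0.0475) and Duxbl3 0.88 (SE 0.303, edgeR adjusted p 0.0184). The call of Duxbl1 was lost with DESeq2 (adjusted p 0.120) and without B6 replicate 2 (0.35, edgeR adjusted p 0.234), and without any 1 of the B6-13D2 libraries or of D2-13B6 replicates 1 and 3 (edgeR adjusted p 0.0521 to 0.0942). That of Duxbl3 was lost without B6 replicate 1 (edgeR adjusted p 0.0770) and without B6-13D2 replicate 1 (edgeR adjusted p 0.0520). With stem cell marker scaling both were lost (edgeR adjusted p 0.138 and 0.0545).

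Among the repressors, Kdm5b, a histone H3K4 demethylase, had 574.5 CPM ± 9.93 for B6, 274.4 ± 11.5 for D2, 419.4 ± 20.6 for B6-13D2 and 416.7 ± 1.99 for D2-13B6. It was higher in D2-13B6 than in D2 by 0.60 (SE 0.0387, edgeR adjusted p 3.78e-10). Chaf1b, a subunit of the chromatin assembly factor CAF-1, whose loss is known to raise two-cell-like cells, rose in B6-13D2 against B6 by 0.57 (SE 0.0457, edgeR adjusted p 5.53e-09), and Uhrf1, a DNA methylation cofactor, by 0.68 (SE 0.0351, edgeR adjusted p 1.55e-11). E2f6, of the PRC1.6 complex, fell there by 0.51 (SE 0.0526, edgeR adjusted p 1.78e-07), and Tet2, a DNA demethylase, by 0.52 (SE 0.0425, edgeR adjusted p 8.21e-09). With stem cell marker scaling, the direction of Kdm5b, Chaf1b, E2f6, Uhrf1 or Tet2 flipped in other comparisons, but not in those given here.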

How the data were processed

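The authors deposited expected counts, that is, estimated reads per Ensembl gene ID that need not be whole, made with EMASE per the deposited file's name. Values that are not whole show that reads were divided among features. The submitters' processing notes name Bowtie 1.0.0, edgeR 3.34.1 and the build mm10, with no role or order. Annotation release, filters and strand are not given in the sources used here, so overlapping genes are uncertain. Of all values, 88.1% were whole to within 1e-06. The mRNA libraries were sequenced as 150-base read pairs, per the labels' protocols. All 12 columns mapped to libraries by name (0 left out).

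Symbols and positions came from GENCODE M21 (GRCm38; 42462 of 43346 IDs matched, the others held 0.361% of reads), and promoters from RefSeq GRCm38.p6. Expected counts were rounded and fitted in R 4.3.3 with edgeR 4.0.16: filterByExpr with a minimum count of 10 (17148 genes), TMM, 4 group means over all 12 libraries, quasi-likelihood F test, and Benjamini-Hochberg adjustment over all genes tested, with 0.05 as threshold. Standard errors were derived from the estimate and its F statistic (estimate over root F, sign dropped). The procedure was checked on simulated data. Python 3.11.15 was used for the rest.

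Alternatives were DESeq2 1.42.0, a replicate block, RLE size factors, each library left out, fits restricted to the libraries compared, no filter or one on a mean CPM of at least 1, family copies summed, and only genes with whole counts; summing sequence-sharing copies and scaling to stem cell markers were chosen after seeing the data. The members and lists were chosen with earlier results of these data known. Named were all members; the 8 largest called changes of the two-cell list in D2 against B6 and in B6-13D2 against B6 with a mean of at least 20 counts; regulators called with a change of 0.5 or more, in log2, in a congenic line against its background strain; and the 8 genes most like the Zscan4 members by levels and by deviations. A result that this rule names is not reported here.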

Additional observations from a re-analysis of the deposited data

Results flagged for a closer look

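For 17 of the genes named outside the members and sharing no 150-base word with them, the effect of the D2 segment differed between the B6 and the D2 background by edgeR at an adjusted p under 0.05 over all genes, as it did for 64.5% of all genes. The value is the log2 effect on the B6 background minus that on the D2 background. The contrast equals both congenic lines minus both parental lines, so it cannot be told apart from anything the congenic libraries share. The difference was -2.89 for Gm8994, -2.31 for B020031M17Rik, -1.91 for Gm21761, -3.30 for Gm2016, -3.04 for Gm5662, -2.42 for Fgf1 and -2.32 for Usp17la. For each of these the D2 line, with its own segment, was higher than D2-13B6, and B6-13D2 was lower than or close to B6, apart from Gm21761, at 0.44 in B6-13D2 against B6 (edgeR adjusted p 0.175). It was -1.02 for Ddit4l and -0.59 for Zfp750, both lower in B6-13D2 than in B6, and 0.48 for Pramel7 and 2.10 for Patl2, both higher in D2-13B6 than in D2. Scaling to the stem cell markers moved the median difference of all genes from 0.0026 to -0.45, and 16 of the 17 were called on that scale, where 67.8% of all genes were. Pramel7 then had a difference of 0.022 (edgeR adjusted p 0.878) and was not called, and Zfp750 one of -1.05.

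Among activators and repressors the difference was -1.77 for Dppa3, -0.36 for Dppa2, 0.15 for Kdm5b, 0.90 for Chaf1b, -0.88 for E2f6 and 0.84 for Uhrf1. With stem cell marker scaling, Kdm5b turned to -0.31, Dppa2 was at -0.82, Chaf1b at 0.44, E2f6 at -1.33 and Uhrf1 at 0.39. The segment effect on the B6 and the D2 background was -0.60 and -0.25 for Dppa2 and -0.45 and -0.60 for Kdm5b, the same sign in each. For Dppa2, D2-13B6 against D2 turned to -0.036 with stem cell marker scaling, which ends the shared sign. Members and genes that share such words with them were left out, since the rule that chose them used both lines of the D2 background.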

How the results depend on the processing

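In B6-13D2 against B6, member log2 fold changes kept their side of the threshold in 161 of 164 alternative values, and 17 of the 164 had the other sign. The values ran over -0.15 to 0.18 for Duxf3, -0.19 to 0.32 for Zfp352, -0.44 to 0.41 for Gm4340, -0.25 to 0.42 for Usp17lc and -0.21 to 0.16 for Zscan4d. By edgeR, Zscan4c was called when family copies were summed (-0.21) and when scaled to stem cell markers (-0.36), and Zscan4d turned to -0.21 when family copies were summed. Thus 2 members were called with stem cell marker scaling. Keeping only whole counts leaves Zfp352, which passed the filter only through D2 or D2-13B6, so its 0 calls (0 at an unadjusted p under 0.05 by edgeR) say nothing about stability. Gm4340 in D2 against B6 turned to 0.038 with its copies summed.

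Counting only genes with whole counts, which leaves fewer genes, the two-cell calls were 9, 7, 9, 9 and 11 of 11, and the regulator calls 20, 18, 21, 23 and 21 of 26, in D2 against B6, B6-13D2 against B6, D2-13B6 against D2, D2-13B6 against B6 and B6-13D2 against D2. Leaving out each library gave, in that order, 32 to 37, 12 to 17, 39 to 42, 31 to 35 and 38 to 42 two-cell calls and 31 to 33, 23 to 31, 35 to 39, 32 to 38 and 34 to 38 regulator calls; the member call stayed at 1 to 1.

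Scaling to stem cell markers moved the median of all genes by 0.54, -0.18, -0.28, 0.26 and -0.72 in that order. It turned Kdm5b in B6-13D2 against D2 to -0.10, Dppa2 in D2-13B6 against D2 to -0.036, Chaf1b and E2f6 in D2-13B6 against B6 to 0.018 and 0.045, Uhrf1 in D2 against B6 to 0.13, in D2-13B6 against D2 to -0.12 and in D2-13B6 against B6 to 0.017, and Tet2 in B6-13D2 against D2 to -0.23; the cause was not tested.

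Same-numbered libraries did not deviate together (r from -0.15 to 0.09 over 18 pairs, 0 above 0.1), so the numbers show no pairing. With the replicate block, members called remained 1 (Zscan4f), two-cell calls were 35, 16, 41, 33 and 40, and regulator calls 33, 29, 38, 37 and 38. Depth limits Zfp352, Duxf3 and Tcstv1, at 0 to 55 counts per library, and the division of reads limits single copies. The filter on a mean CPM of at least 1 left 5 members and the fit of only the libraries compared left 7, so the others have no value there.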
